A study of Mus musculus with 6 samples.

Results

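Collagen genes were compared between untreated mouse embryonic stem cells and cells given tamoxifen to delete Dicer. Dicer is the enzyme that trims microRNA hairpins to their mature length. A gene was taken as a collagen gene if its symbol has the form Col, a number, the letter a and a second number. This gave 44 of the 19938 genes measured, read by 46 probe sets, and the 44 symbols of this form in the RefSeq gene table were all measured. They were set apart as 11 fibrillar collagens, 6 basement membrane collagens (the type IV genes) and 27 other collagens.

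All cells carried the conditional Dicer Fx/Fx genotype. The untreated group (3 arrays) had no deletion induced, and the tamoxifen group (3 arrays) received tamoxifen for 3 days and was collected 2 days later, on day 5. No collection day is given for the untreated cells, and the recombinase that tamoxifen activates is not named in the labels. Tamoxifen-treated E14 cells of wild type were not analysed here, and an effect of the drug and one of the deletion cannot be told apart. Whether the arrays of a group stand for separate cultures is not stated; the p-values rest on the spread among these arrays, which may be technical. Dicer1 itself went from 11.42 ± 0.06 to 9.57 ± 0.11 (log2 signal, SD, n = 3), and the stem cell genes Pou5f1, Sox2 and Nanog had group means of 12.86 to 13.38. The full list of 10 stem cell markers had a median change of -0.10, with 6 below 0, where 53.2% of all genes were above 0.

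Collagens are extracellular proteins whose chains carry glycine-rich repeats and wind around each other into a rope-like helix. Fibrillar collagens pack side by side into the fibres of bone, skin and cartilage, while type IV collagens join into the sheet-like network of basement membranes. The remaining families decorate fibrils, anchor epithelia, form beaded filaments or span the cell membrane. Embryonic stem cells resemble the early epiblast, which rests on a basement membrane and makes little fibrillar matrix. In mouse and human cells the miR-29 family is known to bind the messages of many collagens, and Dicer makes these microRNAs. Their mature sequences, from RefSeq (GRCm38.p6), are shown because they share a seed (bases 2 to 8, in capitals).
miR-29a-3p: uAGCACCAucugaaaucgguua
miR-29b-3p: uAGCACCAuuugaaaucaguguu
miR-29c-3p: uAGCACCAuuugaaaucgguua
No collagen message was searched for sites of this seed, and the part of the family in the values below was not tested.

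Most collagen genes had a slightly higher signal after tamoxifen, and few of the differences passed the test. Two-sided limma with Benjamini-Hochberg adjustment over all 19938 genes called a gene at an adjusted p under 0.05. Of the 44 collagens 2 rose, Col18a1 and Col11a1, 0 fell and 42 were not called. Among all genes 3.79% rose and 3.99% fell, so 2 of 44 is near the background. At an unadjusted p under 0.05 there were 15 collagens higher and 0 lower, against 11.5% and 13.1% of all genes. The change on the log2 scale ran from -0.05 to 0.38 with a median of 0.14, against a median of 0.01 over all genes. It was above 0 in 42 of 44 collagens and in 53.2% of all genes. The exceptions were Col8a1 (-0.05 ± 0.07, SE) and Col20a1 (-0.04 ± 0.06).

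The count of calls depended on single arrays and on whether the replicate number was used as a block. Leaving out untreated replicate 1 raised it to 5, where 3.15% of all genes rose. Leaving out tamoxifen replicate 2 lowered it to 0, where 1.11% of all genes rose and the calls over all genes in both directions dropped from 1552 to 355. It was 1 without untreated replicate 2 or 3 or tamoxifen replicate 1 or 3, where 1.58%, 2.33%, 3.44% and 1.72% of all genes rose. With the replicate number as a block 9 collagens rose and 0 fell, where 7.87% of all genes rose and 9.54% fell. The 7 added by the block were Col4a3, Col6a3, Col6a5, Col9a1, Col16a1, Col19a1 and Col28a1. In 17 of 44 collagens all tamoxifen arrays lay above all untreated arrays and in 0 all lay below, against 14.5% and 14.8% of all genes.

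**Figure D1:**
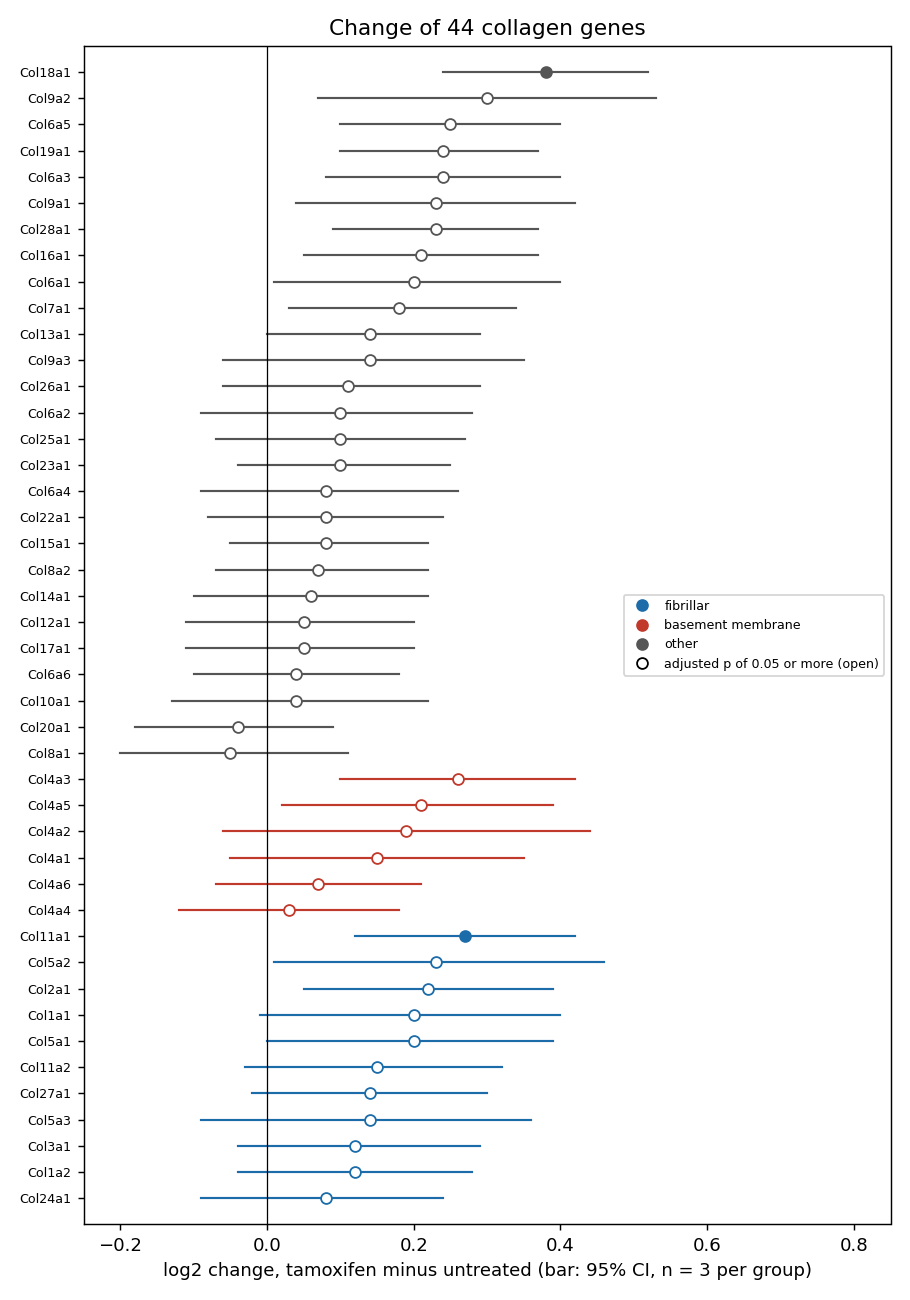
Log2 change (tamoxifen minus untreated) of the 44 collagen genes with 95% confidence intervals from limma, n = 3 arrays per group, sorted within the fibrillar, basement membrane and other classes. Filled points mark the 2 called genes, Col18a1 and Col11a1, and 42 of the 44 points lie to the right of 0.

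Col18a1 had the clearest rise. It encodes the chain of type XVIII collagen, a heparan sulfate proteoglycan of basement membranes whose cleaved end is endostatin, an inhibitor of vessel growth. Its log2 signal was 9.56, 9.55 and 9.53 in untreated replicates 1, 2 and 3, and 9.85, 9.96 and 9.97 in tamoxifen replicates 1, 2 and 3. The untreated arrays lay close together and all tamoxifen arrays lay above them. The change was 0.38 ± 0.06 (log2, SE), a ratio of 1.30, and the adjusted p from limma was 0.0108. The same-numbered arrays differed by 0.29, 0.41 and 0.44. The call was kept in 5 of 6 fits that left out 1 array and was lost without tamoxifen replicate 2 (change 0.36, adjusted p = 0.0548).

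Transcription of Col18a1 starts at separate promoters in mouse, which give forms of different length. RefSeq (GRCm38.p6) lists an outer and an inner start. The 250 bases before each are shown, since this gene had the largest change of all collagens; capitals mark matches to the GC box GGGCGG and the CCAAT box CCAAT on either strand.
Col18a1 outer start, chr10:77166531-77166780, minus strand: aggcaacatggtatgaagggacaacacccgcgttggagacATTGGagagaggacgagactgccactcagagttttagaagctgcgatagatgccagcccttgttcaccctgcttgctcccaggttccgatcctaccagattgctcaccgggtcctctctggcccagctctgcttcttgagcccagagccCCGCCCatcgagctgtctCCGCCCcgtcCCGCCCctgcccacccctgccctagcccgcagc
Col18a1 inner start, chr10:77113706-77113955, minus strand: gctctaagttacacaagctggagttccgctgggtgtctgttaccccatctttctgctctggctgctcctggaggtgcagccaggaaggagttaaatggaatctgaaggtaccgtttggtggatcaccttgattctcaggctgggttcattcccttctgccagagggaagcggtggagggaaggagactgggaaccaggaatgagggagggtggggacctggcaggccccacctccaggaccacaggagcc
The outer window held 3 GC boxes and 1 CCAAT box, and the inner window held 0 of either. Over 32851 promoter windows of this length, 32.7% held a GC box and 33.8% a CCAAT box. Neither window held the TATA box TATAAA, which 12.4% of the windows did; no motif searched overlaps another. A match describes the letters only. The table has 1 probe set for Col18a1, so the signal does not tell the starts apart.

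Col15a1, the other member of the same family, which also lies in basement membrane zones, had a change of 0.08 ± 0.06 (adjusted p = 0.436).

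Among the fibrillar collagens 1 of 11 rose, 0 fell and 10 were not called, with a median change of 0.15 and a range of 0.08 to 0.27. Of all genes 3.79% rose and 3.99% fell. The gene called was Col11a1, which encodes a chain of type XI collagen, a minor partner of type II in cartilage fibrils. Its log2 signal was 7.32, 7.19 and 7.13 in untreated replicates 1 to 3 and 7.48, 7.47 and 7.49 in tamoxifen replicates 1 to 3. The groups did not overlap, and the untreated arrays were more spread than the tamoxifen arrays. The change was 0.27 ± 0.07 (log2, SE), a ratio of 1.21, and the adjusted p from limma was 0.0457. It was called in 1 of 6 fits that left out 1 array, the one without untreated replicate 1. In the other 5 the change was 0.23 to 0.28 and the adjusted p 0.0841 to 0.137. It was also not called with a trended and robust variance prior (0.0601) or over all probe sets (0.11). With the replicate block its adjusted p was 0.0225.

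The start of Col11a1 is shown for comparison, cut to the 189 bases that lie before all its annotated transcripts, with the same marks.
Col11a1, chr3:114030290-114030478, plus strand: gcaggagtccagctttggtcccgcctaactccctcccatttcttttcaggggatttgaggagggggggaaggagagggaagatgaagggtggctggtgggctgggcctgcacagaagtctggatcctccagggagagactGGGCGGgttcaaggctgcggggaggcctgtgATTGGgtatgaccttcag
It held 1 GC box and 1 CCAAT box. Of all promoter windows 22.6% and 26.5% hold these in the first 189 of the 250 bases before the start, which leaves out the bases next to it.

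The other genes of cartilage fibrils lay below the threshold. Col2a1, the chain of type II collagen, had signals of 8.04, 7.97 and 7.80 in untreated and 8.11, 8.16 and 8.19 in tamoxifen replicates 1 to 3. These groups did not overlap, and the change of 0.22 ± 0.07 was not called (adjusted p = 0.111). Col11a2, the second chain gene of type XI, had a change of 0.15 ± 0.08 (adjusted p = 0.283), and its groups overlapped. Col27a1, a long fibrillar chain of growth plate cartilage, had a change of 0.14 ± 0.07 (adjusted p = 0.272), and Col24a1, a relative found in bone and cornea, of 0.08 ± 0.07 (0.571).

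The chains of type I collagen, the main fibre of bone, skin and tendon, were not called. Col1a1 had signals of 7.86, 7.85 and 7.61 in untreated and 7.87, 8.10 and 7.94 in tamoxifen replicates 1 to 3. The lowest tamoxifen array lay only just above the highest untreated array, and the change was 0.20 ± 0.09 (adjusted p = 0.223). Col1a2, its partner in the type I molecule, had a change of 0.12 ± 0.07 (adjusted p = 0.326). The same-numbered arrays differed by 0.01, 0.25 and 0.32 for Col1a1 and by -0.01, 0.21 and 0.17 for Col1a2. Both chains therefore differed little in replicate 1.

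Col3a1, the chain of type III collagen of skin and vessels, had a change of 0.12 ± 0.07 (adjusted p = 0.333). The type V genes, whose product starts fibrils and limits their width, had changes of 0.20 ± 0.09 for Col5a1 (adjusted p = 0.21), 0.23 ± 0.10 for Col5a2 (0.187) and 0.14 ± 0.10 for Col5a3 (0.442). Of these only Col5a2 had groups that did not overlap, with untreated signals of 6.26, 6.22 and 5.95 and tamoxifen signals of 6.32, 6.52 and 6.28. Col3a1 and Col5a2 are neighbours in the genome.

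**Figure D2:**
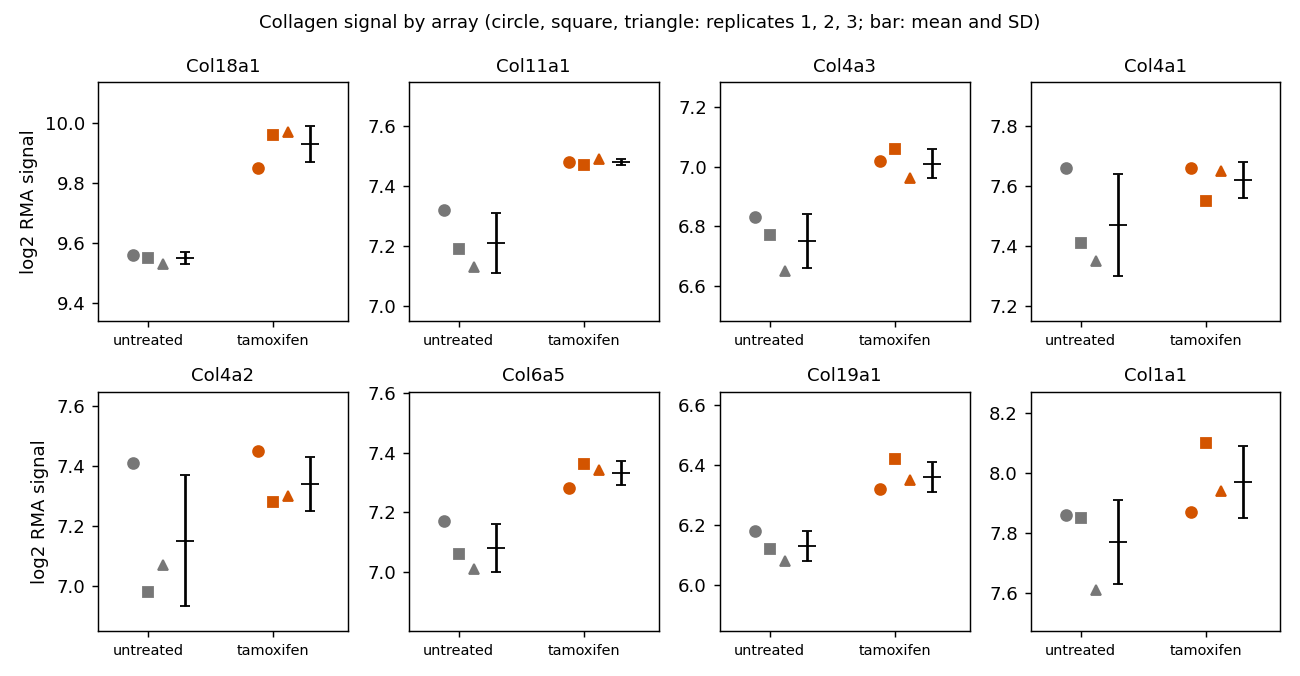
Log2 RMA signal of 8 collagen genes on each of the 6 arrays, with the mean and SD of each group (n = 3); all panels span the same height. Col18a1 shows tight untreated arrays below all tamoxifen arrays, while in Col4a1 and Col4a2 untreated replicate 1 lies at the level of the tamoxifen arrays.

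None of the 6 type IV collagen genes was called by limma. Their median change was 0.17 (0.03 to 0.26). Unadjusted, p was under 0.05 for 2 genes, both higher, where 11.5% of all genes were higher and 13.1% lower. Col4a1 and Col4a2 encode the chains found in nearly all basement membranes. Col4a1 had signals of 7.66, 7.41 and 7.35 in untreated and 7.66, 7.55 and 7.65 in tamoxifen replicates 1 to 3, and Col4a2 had 7.41, 6.98 and 7.07 against 7.45, 7.28 and 7.30. In both genes untreated replicate 1 stood above the other untreated arrays and the groups overlapped. The changes were 0.15 ± 0.09 (adjusted p = 0.351) and 0.19 ± 0.11 (adjusted p = 0.331), with 95% confidence intervals from -0.05 to 0.35 and from -0.06 to 0.44. Without untreated replicate 1 the changes were 0.24 and 0.32, still not called.

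The remaining type IV chains build the basement membranes of the kidney filter, lung, eye and smooth muscle. Col4a3 had signals of 6.83, 6.77 and 6.65 in untreated and 7.02, 7.06 and 6.96 in tamoxifen replicates 1 to 3. The groups did not overlap, and the change of 0.26 ± 0.07 was just short of the threshold (adjusted p = 0.0546). It was called with the replicate block (0.0205), after median centring (0.0459) and with array weights (0.03). Of 6 fits that left out 1 array it was called in 1, the one without untreated replicate 1 (0.049). In the other such fits the adjusted p was 0.101 to 0.186, and over all probe sets it was 0.126. Col4a5 had a change of 0.21 ± 0.08 (adjusted p = 0.155), Col4a6 of 0.07 ± 0.06 (0.566) and Col4a4 of 0.03 ± 0.07 (0.823), which turned to -0.02 after renewed quantile normalisation and to -0.01 after cyclic loess or without untreated replicate 3.

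Type IV genes lie in pairs that are read in opposite directions from a shared stretch of DNA. The RefSeq starts of Col4a1 and Col4a2 lie 21 bases apart and those of Col4a5 and Col4a6 lie 1343 bases apart. The changes were 0.15 and 0.19 for Col4a1 and Col4a2, and 0.21 and 0.07 for Col4a5 and Col4a6. Col4a3 and Col4a4, neighbours of the same kind, had 0.26 and 0.03. Differences between the members of a pair were not tested.

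Of the 27 other collagens 1 rose (Col18a1), 0 fell and 26 were not called, or 7 rose and 0 fell with the replicate block. The shares of all genes were 3.79% higher and 3.99% lower, or 7.87% and 9.54% with the block. Their median change was 0.10. Among the fibril-associated collagens, which sit on the surface of larger fibrils, 0 of 9 were called by limma. Unadjusted, 4 were higher and 0 lower at p under 0.05, against 11.5% and 13.1% of all genes. Col19a1, made in developing muscle, had signals of 6.18, 6.12 and 6.08 in untreated and 6.32, 6.42 and 6.35 in tamoxifen replicates 1 to 3. The groups did not overlap, and the change was 0.24 ± 0.06 (adjusted p = 0.0511, or 0.0313 with the block). Its neighbour Col9a1 had a change of 0.23 ± 0.08 (adjusted p = 0.133, or 0.0339 with the block).

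Col9a1, Col9a2 and Col9a3 together encode type IX collagen, which coats type II fibrils in cartilage. Col9a2 had the second largest change of all collagens, 0.30 ± 0.10 (adjusted p = 0.106), with signals of 8.24, 7.97 and 7.84 in untreated and 8.25, 8.38 and 8.33 in tamoxifen replicates. Untreated replicate 1 lay at the level of tamoxifen replicate 1, and the pair differed by 0.01 against 0.40 and 0.49 for the other pairs. Of 6 fits that left out 1 array it was called in 1, the one without untreated replicate 1 (change 0.41). Col9a3 had a change of 0.14 ± 0.09 (adjusted p = 0.38). Col16a1, a minor component at fibril surfaces, had 0.21 ± 0.07 (adjusted p = 0.109, or 0.0437 with the block). Col12a1, Col14a1 and Col22a1, of tendon, skin and muscle-tendon junctions, had changes of 0.05 to 0.08.

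Beaded filament collagens (type VI), which link cells to the matrix around muscle and fat, were not called by limma in any of 6 genes. Unadjusted, 3 were higher and 0 lower at p under 0.05, against 11.5% and 13.1% of all genes. Col6a5 had signals of 7.17, 7.06 and 7.01 in untreated and 7.28, 7.36 and 7.34 in tamoxifen replicates 1 to 3, with no overlap. The change was 0.25 ± 0.07 (adjusted p = 0.0526, or 0.0338 with the block). Its second, dimmer probe set had a change of 0.03 ± 0.09, and the difference between the probe sets was not tested. Col6a3, the large chain of the standard type VI molecule, had a change of 0.24 ± 0.07 (adjusted p = 0.0807, or 0.0319 with the block), while its partners Col6a1 and Col6a2 had 0.20 ± 0.09 (0.191) and 0.10 ± 0.08 (0.522). The changes of Col6a4 and Col6a6 were 0.08 ± 0.08 and 0.04 ± 0.06, and the second probe set of Col6a6 had 0.02 ± 0.06.

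Network collagens had the smallest changes. Col8a1 and Col8a2, of a membrane within the cornea, had -0.05 ± 0.07 and 0.07 ± 0.06. Col10a1, a marker of hypertrophic cartilage cells, had 0.04 ± 0.08. Their groups overlapped. Col7a1, which forms the anchoring fibrils that hold the epidermis, had 0.18 ± 0.07 (adjusted p = 0.138), and its tamoxifen arrays, 8.03 to 8.08, lay above its untreated arrays, 7.77 to 7.97.

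The collagens that span the cell membrane had changes of 0.14 ± 0.06 for Col13a1, 0.10 ± 0.06 for Col23a1, 0.10 ± 0.08 for Col25a1 and 0.05 ± 0.07 for Col17a1, a part of hemidesmosomes. Col28a1, a collagen of glial cells in peripheral nerve, had signals of 5.85, 5.80 and 5.70 in untreated and 6.02, 6.02 and 6.01 in tamoxifen replicates 1 to 3. The groups did not overlap, and the change was 0.23 ± 0.06 (adjusted p = 0.0552, or 0.0295 with the block). Col26a1 had 0.11 ± 0.08 (adjusted p = 0.404).

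Collagen genes swung together from array to array, most clearly in the untreated group. Untreated replicate 1 was the highest untreated array in 36 of 44 collagens, against 41% of all genes, and untreated replicate 3 the lowest in 37, against 40.6% of all genes. Tamoxifen replicate 2 was the highest tamoxifen array in 28, against 34.1% of all genes, and replicate 1 in 11, against 38.1%. Tamoxifen replicate 3 was the lowest in 19, against 37.4%. The mean collagen signal was 7.26, 7.17 and 7.07 in untreated and 7.30, 7.35 and 7.29 in tamoxifen replicates 1 to 3. All tamoxifen means lay above all untreated means, but replicate 1 differed by far less than the others. Within replicate 1 the median difference of the 44 genes was 0.02 and 26 were above 0. In replicates 2 and 3 it was 0.20 and 0.21, with 41 and 43 above 0. The median of all genes was -0.01, 0.01 and 0.01 in these pairs. Genes of similar signal showed the same order of pairs in some signal deciles only. In deciles 3 and 4, with 7 collagens each, the median of all genes was 0.00 in replicate 1 and 0.08 to 0.10 in replicates 2 and 3. In decile 5, with 20 collagens, it was -0.01, 0.05 and 0.06 in replicates 1 to 3. The order was reversed in decile 6, with 8 collagens (-0.01, -0.04 and -0.02), and in decile 8 of Col18a1 (-0.01, -0.07 and -0.07). Relative to the median of its own decile, a collagen gene had a median difference of 0.03, 0.15 and 0.15. Without both arrays numbered 1, a setting added after the data were seen, the median collagen change was 0.21 and 4 collagens rose (Col18a1, Col11a1, Col6a5 and Col9a2), where 3.83% of all genes rose and 1703 were called in both directions. The part of single arrays in the shared direction of the collagens was not tested further.

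**Figure D3:**
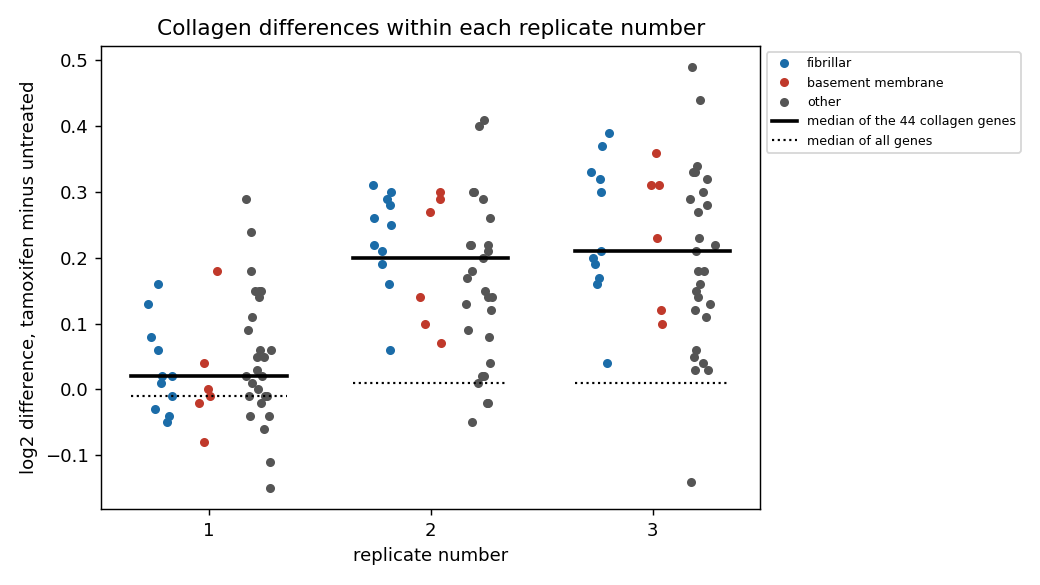
Log2 difference between the tamoxifen and the untreated array of the same replicate number for each collagen gene, by class. Solid lines are the median of the 44 collagens (0.02, 0.20 and 0.21) and dotted lines the median of all genes (-0.01, 0.01 and 0.01).

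The change also moved with signal over all genes. In 10 equal bins of genes by mean signal (deciles, 1 the dimmest), 43 of the 44 collagens lay in deciles 2 to 6, and Col18a1 lay in decile 8. The median change of all genes was 0.03 to 0.06 in deciles 2 to 5, -0.03 in decile 6 and -0.05 in decile 8. Relative to the median of its own decile, a collagen gene had a median change of 0.12, and 39 of 44 were above it. Of the 44 genes 29 lay above the dimmest 40% of all genes. RMA gives no detection call, so a dim probe set may carry mostly background, and changes there are compressed.

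**Figure D4:**
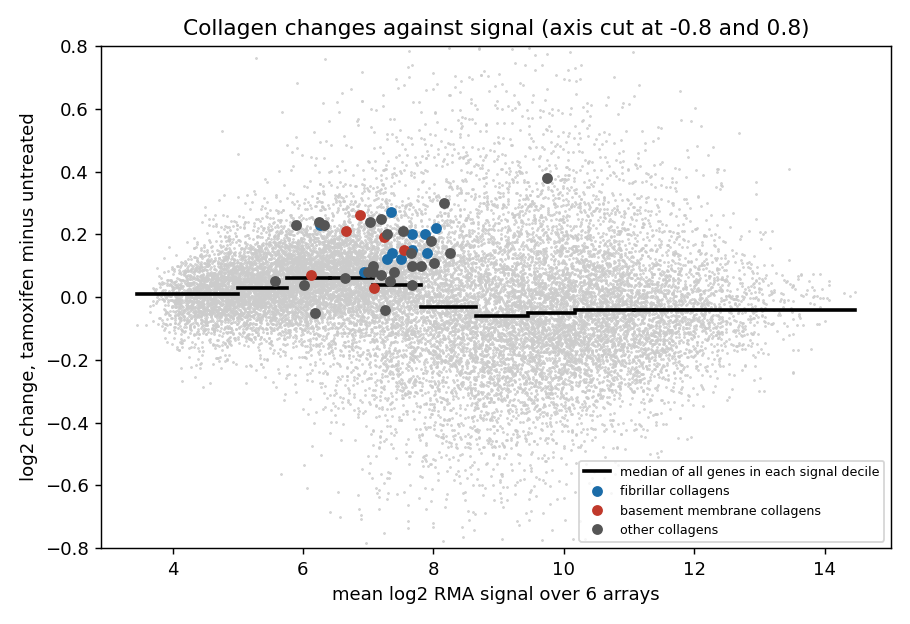
Log2 change against mean log2 signal for all 19938 genes (grey), with the 44 collagens in colour and black bars for the median of all genes in each signal decile. Collagens lie mostly between signals of 6 and 8 and above the bars, with Col18a1 apart at a signal of 9.74.

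Genes that make, process and bind collagen were read from the same fit, in which 3.79% of all genes rose and 3.99% fell. With the block these shares were 7.87% and 9.54%. Of 22 measured genes of biosynthesis and secretion 1 rose, 0 fell and 21 were not called, with a median change of 0.07. Crtap, a subunit of the prolyl 3-hydroxylase complex, had signals of 10.80, 11.01 and 10.83 in untreated and 11.35, 11.27 and 11.29 in tamoxifen replicates 1 to 3. The groups did not overlap, and Crtap rose by 0.42 ± 0.07 (adjusted p = 0.0133, but 0.053 without tamoxifen replicate 2). With the block P4ha1 and P4ha2, subunits of the prolyl 4-hydroxylase that stabilises the collagen helix, fell (-0.32 and -0.30, adjusted p = 0.0338 and 0.0268), while without it they were not called (0.49 and 0.191). Serpinh1, the collagen chaperone HSP47, had a change of 0.19 ± 0.07 (adjusted p = 0.158).

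Of 12 measured genes of processing and crosslinking 1 rose, 0 fell and 11 were not called, or 5 rose with the block. Of all genes 3.79% rose and 3.99% fell, or 7.87% rose with the block. Tll1, a relative of the protease that removes the end pieces of procollagen, had signals of 5.97 to 6.05 in untreated arrays and of 6.37, 6.49 and 6.65 in tamoxifen replicates 1 to 3. The groups did not overlap, and Tll1 rose by 0.49 ± 0.08 (adjusted p = 0.011). The genes added by the block were Adamts14, a procollagen protease (0.26, adjusted p = 0.0199), Pcolce, which enhances procollagen cleavage (0.30, 0.0145), and the crosslinking oxidases Lox (0.24, 0.0378) and Loxl4 (0.24, 0.0442).

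No receptor gene of 9 and no gene of breakdown of 11 was called by limma. With p unadjusted and under 0.05, 2 receptors were higher and 0 lower, and 1 breakdown gene was higher and 1 lower. At that p 11.5% of all genes were higher and 13.1% lower. Mrc2, which takes up collagen fragments, had a change of 0.29 ± 0.08 (adjusted p = 0.0566, with the block 0.0232), and the collagen-activated kinase Ddr1 of 0.15 ± 0.06 (adjusted p = 0.155). The membrane protease Mmp14 had 0.17 ± 0.06 (0.118) and the protease inhibitor Timp3 had -0.23 ± 0.09 (0.17).

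Of 10 basement membrane partners of type IV and type XVIII collagen 2 rose, 0 fell and 8 were not called, or 4 rose and 1 fell with the block. The shares of all genes were 3.79% higher and 3.99% lower, or 7.87% and 9.54% with the block. Lamc1, the laminin gamma chain of most basement membranes, had signals of 12.12, 12.16 and 12.18 in untreated and 12.47, 12.56 and 12.49 in tamoxifen replicates. It rose by 0.35 ± 0.06 (adjusted p = 0.0126), and the call was lost without untreated replicate 2 (0.0505) or tamoxifen replicate 2 (0.0631). Nid1, which links laminin to type IV collagen, rose by 0.40 ± 0.09 (adjusted p = 0.0337), from 12.00, 11.73 and 11.74 to 12.36, 12.17 and 12.16, with differences of 0.36, 0.44 and 0.41 between same-numbered arrays. Its call was kept in 1 of 6 fits without 1 array, the one without untreated replicate 1. In the other 5 the adjusted p was 0.0704 to 0.115. Agrn and Sparc rose and Lama1 fell with the block alone (adjusted p = 0.0443, 0.0081 and 0.0495).

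**Figure D5:**
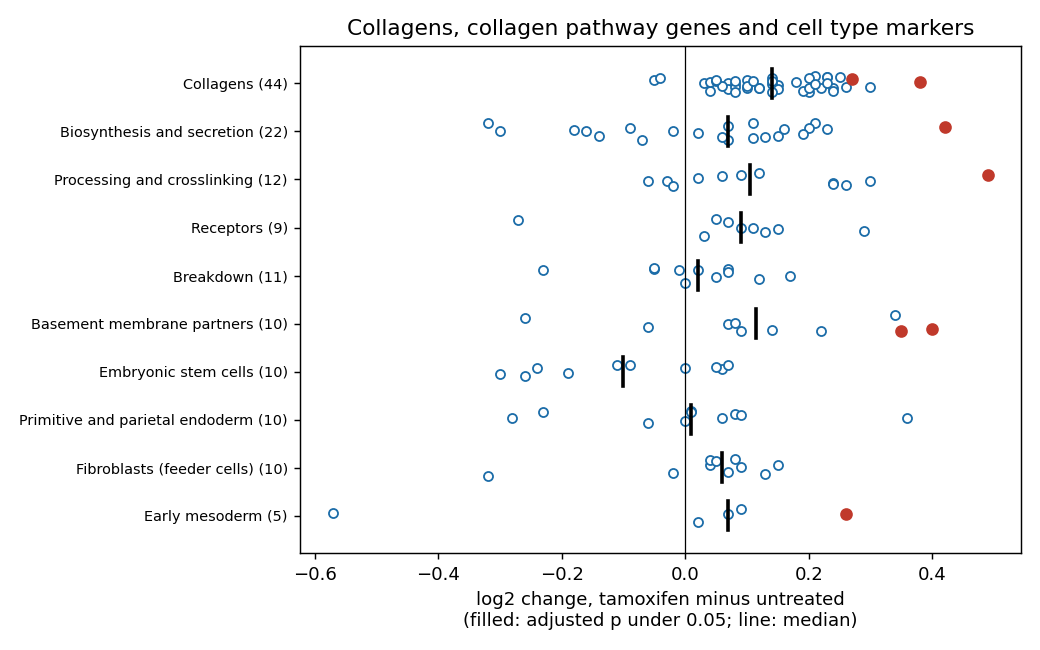
Log2 change of each gene in the collagens, the collagen pathway lists and the cell type marker lists (number measured in brackets), with called genes filled and the median as a line. The collagens have a median of 0.14, and the stem cell markers of -0.10.

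Markers of cells that make much collagen were read beside these values. In bulk RNA, a change in the number of cells of a type and one in RNA per cell cannot be told apart. Of all genes 3.79% rose and 3.99% fell, or 7.87% and 9.54% with the block, and 53.2% had a change above 0. At an unadjusted p under 0.05 from limma, 11.5% of all genes were higher and 13.1% lower. Of 10 fibroblast markers 0 were called by limma, 8 were above 0 and the median change was 0.06, with 0.15 ± 0.08 for S100a4 and 0.13 ± 0.07 for Twist2. With p unadjusted and under 0.05, 0 were higher and 1 (Thy1) lower, and Thy1 fell with the block (-0.32, adjusted p = 0.00725). Of the list 9 lay among the dimmest 40% of genes. Their summed linear signal was 9.79 to 10.01 in untreated and 9.83 to 9.89 in tamoxifen arrays (log2 of the sum, in which Thy1 is the brightest member). Of 10 markers of primitive and parietal endoderm, which lays down a thick basement membrane, 0 were called (1 rose and 1 fell with the block), 1 was higher and 1 lower at that p, and the sum was 10.54 to 10.78 and 10.59 to 10.64. Pdgfra had a change of 0.36 ± 0.09 (adjusted p = 0.0518, with the block 0.018), Gata4 had 0.00 ± 0.08 and Gata6 had -0.23 ± 0.18 (0.471). Sox7 had -0.28 ± 0.08 (adjusted p = 0.0603) and fell with the block (0.041). Foxa2, Dab2, Plat, Thbd and Amn had changes of 0.01 to 0.09, and Sox17 had -0.06. Of the 10 endoderm markers 7 were above 0, and the median change was 0.01. For both lists the range of the tamoxifen arrays lay within that of the untreated arrays.

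Of 5 measured early mesoderm markers 1 rose, Kdr, a receptor for vascular growth factor, by 0.26 ± 0.07 (adjusted p = 0.0468), and 0 fell. The shares of all genes were 3.79% higher and 3.99% lower, or 7.87% and 9.54% with the block. Eomes, a transcription factor of early mesoderm, had -0.57 ± 0.23 (adjusted p = 0.174), with same-numbered arrays differing by -0.26, -0.62 and -0.84, and fell with the block (0.00745). The Kdr call was lost after renewed quantile normalisation (0.0631), cyclic loess (0.0602) and in each of the 6 fits that left out 1 array (0.0647 to 0.172). The sum of the list was 9.59 to 9.86 in untreated and 9.35 to 9.73 in tamoxifen arrays. Of 10 stem cell markers 0 were called, and 3 fell with the block: Lin28a, Utf1 (-0.26, adjusted p = 0.0193) and Tdgf1 (-0.24, 0.0326). Unadjusted, 0 were higher and 4 lower at p under 0.05, against 11.5% and 13.1% of all genes. Lin28a, which blocks the maturation of let-7 microRNAs, had -0.30 ± 0.08 (adjusted p = 0.0552, with the block 0.0133).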

How the data were processed

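RNA was measured on Affymetrix arrays, 3 per group. The authors' deposited signals are on a log2 scale, summarised by RMA; the submitters' processing notes name Affymetrix Expression Console 1.2. That the scale is log2 follows from the value range, with array medians of 7.19 to 7.26 and genes not centred. The genome build of the array annotation is not given in the sources used here. The platform annotation listed 1 symbol for 21789 of the 35556 probe sets, several for 1621 and none for 12146. The brightest probe set of a gene was kept, giving 19938 genes. Groups came from the sample labels. The test was limma 3.58.1 (lmFit, eBayes; R 4.3.3), two-sided, and dim genes were kept. Errors are SE for changes and SD for means.

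Deviations of same-numbered arrays from their group means correlated at 0.356, 0.345 and 0.389. The labels give only a running number and do not state that it pairs the samples. The main fit therefore had no block, and the replicate number was used as a block in an alternative fit only. The code was tested on simulated data with independent arrays, where 65% of log2 changes of 0.5 and 96% of those of 1 were recovered. Changes as small as those of the collagens were not simulated, so a collagen not called may still have changed. Alternatives covered the block, the probe set rule, a filter on dim genes, normalisation, the variance prior, array weights, the threshold and each array left out. Leaving out both arrays numbered 1, and change within signal deciles, were added after seeing the data.

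Named genes were all fibrillar and type IV collagens, called other collagens plus the 3 with the smallest p, and up to 2 called genes per direction of each list, or the 2 with the smallest p, and the marker with the smallest p of each marker list. Other pathway genes and markers named were chosen after their values were seen. The remaining collagens were named to account for every member. The members and lists were chosen with earlier results of these data known. Fkbp10, Adamts2, Loxl2, Gp6 and T were listed but not used here. Promoter windows of 35 collagen genes and the microRNA sequences are from RefSeq. The number of arrays limits the precision.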

Additional observations from a re-analysis of the deposited data

How the results depend on the processing

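No collagen was called lower, and the median collagen change stayed between 0.09 and 0.19 when 1 array was left out and between 0.12 and 0.21 in the other settings. The number of collagens called higher, 2, was 9 with the replicate block, 7 with array weights, 4 after median centring, 1 with a trended and robust variance prior, 1 over all probe sets, 0 at an adjusted p under 0.01, and 4 without both arrays numbered 1. It was 0 to 5 when 1 array was left out. It stayed at 2 or 3 with the mean of probe sets, renewed quantile normalisation, cyclic loess and without the dimmest 40% of genes. Calls over all genes in both directions, 1552, became 3472 with the block, 2511 with array weights and 1704 after median centring. They were 1672 with the variance prior, 336 over all probe sets, 276 at an adjusted p under 0.01, and 355 to 1580 without 1 array (lowest without tamoxifen replicate 2). In the settings with 2 or 3 collagens they were 1509 to 1724. The share of all genes that rose was counted only in the main fit, the block and the fits without arrays. Over all probe sets, unnamed ones included, Crtap (0.058), Tll1 (0.0548), Lamc1 (0.05), Nid1 (0.105) and Kdr (0.11) were not called. The replicate block changed no call of a named gene beyond those given with its value. For the other settings the cause was not tested. The change of Col4a4, 0.03 and not called, turned to -0.02 (renewed quantile normalisation) and -0.01 (cyclic loess), and was -0.01 to 0.08 without 1 array (lowest without untreated replicate 3). RMA gives no detection call, so how far dim signal limits these values is unknown.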
